A study of Rattus norvegicus with 6 samples.

Results

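The FOXA and HNF4 accessible sites (ACS) were all regions of the rat islet ATAC-seq data whose nearest annotated gene was Foxa1, Foxa2, Foxa3, Hnf4a or Hnf4g. They numbered 79 of the 101603 distinct ACS. Foxa2 was assigned 34 of them, Foxa1 20, Hnf4g 19, Hnf4a 5 and Foxa3 1. In ATAC-seq, a transposase (Tn5) cuts open DNA and leaves sequencing adapters there, and each value is a count of such integrations in 1 ACS and 1 library. The libraries came from dissociated pancreatic islet cells of Sprague-Dawley rats with no treatment and no altered allele. Those of the Adult group (replicates 4, 5 and 6) were from 3 adult males, and those of the P10 group (replicates 1, 2 and 3) were each from a mix of a few pups of both sexes from a litter killed at postnatal day 10. Age, sex and the use of single animals or pooled pups changed together between the groups, so their effects cannot be told apart. The study compared both ages to see how islet chromatin differs before and after maturation.

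FOXA proteins are forkhead factors that can bind DNA still wrapped around nucleosomes and open it for other factors, and they act in the endoderm, pancreas and liver. Foxa2 and Foxa1 are both used in the developing pancreas and in β-cells, and Foxa3 is better known from liver and gut. HNF4 proteins are nuclear receptors that bind DNA as dimers. Hnf4a controls genes of glucose and lipid metabolism, and its mutations cause a form of maturity-onset diabetes of the young, while Hnf4g is its close relative in gut, kidney and pancreas.

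The 5 genes lie on 4 chromosomes of the Rn5 assembly. Foxa1 spans chr6:88041150-88074240 on the minus strand, and its ACS covered 515 kb between those assigned to LOC314140 and Sstr1. Foxa2 spans chr3:148793487-148797682, on the plus strand in the deposited table, and its ACS covered 459 kb between those of Pax1 and Sstr4. RefSeq has Foxa2 on the minus strand of the later GRCr8 assembly, so which end of the gene is its start, and which of its ACS are upstream, follow the table and could not be checked here. Below and in the figures, the Foxa2 start means the start in the table, which may be the other end of the gene. Hnf4g spans chr2:119962231-120107977 on the minus strand, and its ACS covered 1021 kb between those of Zfhx4 and Ythdf3. Hnf4a spans chr3:166093105-166155667 on the plus strand, and its ACS covered 47.1 kb. Foxa3 spans chr1:81181104-81190030 on the minus strand. No ACS of another gene fell inside these stretches. A gene with any ACS had a median of 3, over 13834 genes, so Foxa2, Foxa1 and Hnf4g had more ACS than 97.5%, 92.7% and 92.0% of genes, and Hnf4a more than 58.7%. By the class given in the deposited table, 6 of the 79 ACS were TSS, 5 PROXIMAL and 68 DISTAL. By position, 37 were upstream of the gene, 27 downstream and 11 inside it, and the rest overlapped its start. Distances below run from the gene start to the end of the ACS with the lower coordinate, and an ACS may act on another gene than the nearest.

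The promoters of Foxa2 and Hnf4a are printed because the ACS that the table places at the starts of these genes differed with age. As the table and RefSeq differ in the strand of Foxa2, its printed promoter may not lie at that ACS. Of the 5 genes, 3 had an entry in RefSeq's promoters (GRCr8 assembly), Hnf4a with 2. The 250 bases before each start are given 5′ to 3′, read on the strand of the gene. Capitals would mark the FOXA and HNF4 letters named below, and none were found, so all bases are in lower case.
Hnf4a, upstream start, chr3:172605970-172606219, plus strand: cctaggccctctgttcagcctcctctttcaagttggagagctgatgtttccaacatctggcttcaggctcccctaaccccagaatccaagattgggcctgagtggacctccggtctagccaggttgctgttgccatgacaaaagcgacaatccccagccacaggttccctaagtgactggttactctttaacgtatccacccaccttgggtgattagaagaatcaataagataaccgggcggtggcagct
Hnf4a, downstream start, chr3:172641586-172641835, plus strand: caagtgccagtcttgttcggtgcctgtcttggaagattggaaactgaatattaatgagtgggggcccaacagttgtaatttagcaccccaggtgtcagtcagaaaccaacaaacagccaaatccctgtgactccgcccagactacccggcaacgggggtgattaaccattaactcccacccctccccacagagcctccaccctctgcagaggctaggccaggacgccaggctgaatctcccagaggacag
Foxa2, chr3:155927509-155927758, minus strand: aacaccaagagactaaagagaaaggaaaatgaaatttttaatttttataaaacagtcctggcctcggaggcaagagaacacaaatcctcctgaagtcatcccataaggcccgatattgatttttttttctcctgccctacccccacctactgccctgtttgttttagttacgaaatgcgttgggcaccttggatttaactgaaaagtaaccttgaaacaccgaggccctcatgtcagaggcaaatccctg
The FOXA letters TGTTTAC and TATTTAC, searched on both strands, were in 7.14% of 33469 promoters of the same length, and the HNF4 letters CAAAGTCCA and CAAAGGTCA were in 0.813%. Here the promoters were whole entries of 300 bases, longer than the 250 printed. Neither set of letters was found in the promoters of Foxa2, Foxa3 or Hnf4a. Positions were not converted between the assemblies.

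Of the 79 ACS, 10 were more accessible in adults (Up), 12 were more accessible at P10 (Down) and 57 were stable. An ACS was called when its p-value was under 0.05 and its false discovery rate (FDR) over all 101603 ACS was under 0.2 in the quasi-likelihood test of edgeR. Over all ACS, 12.3% were Up and 6.63% were Down, so the 12.7% of members that were Up was near the background and the 15.2% that were Down was above it. The 3 adult libraries were all above the 3 P10 libraries at 8 members and all below at 15, against 13.8% and 10.9% of all ACS. The median log2 fold change (adult over P10) was -0.14 over the members and -0.0076 over all ACS. Scaling by the plain sum of integrations gave 8 Up and 16 Down among the members, and 10447 Up and 10732 Down among all ACS in place of 12504 and 6738, while cyclic loess gave 8 and 10 among the members and 11068 and 9101 among all. Scaling by the total reads of each library moved the median of all ACS to -0.84 and left 1 Up and 50 Down member. Without P10 2, 6 members were Up and 4 Down, and without P10 3, 6 were Down. In bulk libraries such as these, fewer cells of a type and lower accessibility per cell cannot be told apart.

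Of the 20 ACS of Foxa1, 6 were Up, 0 were Down and 14 were stable, and the median log2 fold change was 0.24. Its Up share of 30% was above the 12.3% of all ACS. The Down share of all ACS was 6.63%, and a count of 0 among 20 is near it. The count of Down ACS was also 0 at an unadjusted p under 0.05 in edgeR, and in limma voom and DESeq2, but 7 with total reads as library sizes. Without Adult 4, the ACS inside the gene at 11.2 kb from its start became Down, with a log2 fold change of -1.41 and an adjusted p of 0.0654.

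The strongest change of all members was just upstream of Foxa1, at chr6:88074841-88075490, starting 601 bp before the gene. It held 53.4, 42.1 and 42.2 CPM (integrations as counts per 1e6, TMM-scaled) in Adult 4, 5 and 6 and 18.7, 14.7 and 17.0 CPM in P10 1, 2 and 3. All adult libraries stood well above all P10 libraries. The means were 45.9 ± 6.52 and 16.8 ± 2.01 CPM (SD, n = 3 each), and the log2 fold change was 1.45 ± 0.18 (SE) with an edgeR adjusted p of 4.4e-06. With each library left out in turn it ran from 1.32 to 1.52. Among all ACS of the TSS class, 2.73% were Up.

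The ACS that overlaps the Foxa1 start, at chr6:88074110-88074581, lies 259 bp from the former and was stable. It held 14.1, 9.35 and 9.67 CPM in the adult libraries and 8.74, 9.49 and 9.04 CPM in the P10 libraries. The groups overlapped, with Adult 4 the highest, and the log2 fold change was 0.29 ± 0.23 (edgeR adjusted p = 0.542). The ratio of both counts within a library, which no scaling can change, was 3.79, 4.50 and 4.36 in adults and 2.14, 1.55 and 1.88 at P10. Every adult ratio was above every P10 ratio. As the upstream ACS was already Up without overlap, this separation is no separate support for its call. The ratios were chosen after values were seen and were not tested.

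The plot of accessibility at the gene starts shows all 6 ACS of the TSS class per length.

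**Figure D1:**
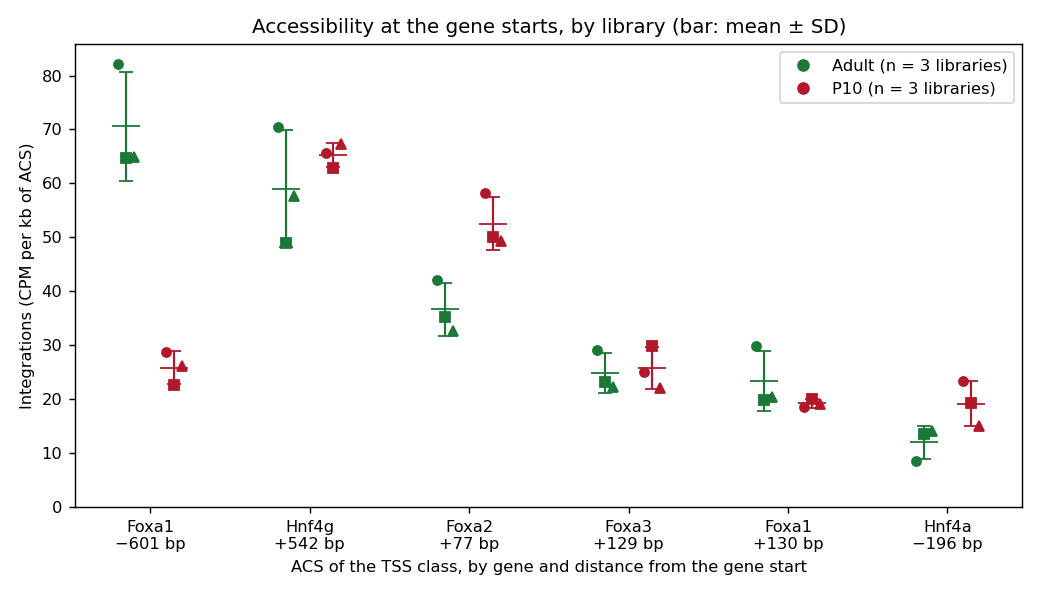
Integrations in CPM per kb of ACS (vertical axis) for the 6 ACS of the TSS class, named by gene and distance from the gene start (horizontal axis). Points are libraries (circle, square and triangle are replicates 4, 5 and 6 in adults, green, and 1, 2 and 3 at P10, red) and bars are the mean ± SD of 3. The ACS 601 bp upstream of Foxa1 had a mean of 70.6 in adults and 25.8 at P10, and that of Foxa2 36.7 and 52.6.

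Further from the gene, 3 upstream ACS of Foxa1 rose with age. At 149 kb upstream (chr6:88222938-88223421), the adult libraries held 13.01, 17.5 and 15.3 CPM and the P10 libraries 6.69, 6.85 and 7.14 CPM. The groups were apart, and the log2 fold change was 1.15 ± 0.22 (edgeR adjusted p = 0.0011). At 319 kb upstream (chr6:88393078-88393356), the values were 6.42, 6.43 and 4.12 CPM against 1.72, 1.71 and 3.07 CPM. The groups were again apart, although Adult 6 and P10 3 were closest to each other, and the log2 fold change was 1.39 ± 0.33 (edgeR adjusted p = 0.0060). At 21.8 kb upstream (chr6:88096022-88096510), the values were 14.2, 11.0 and 16.8 CPM against 7.62, 6.99 and 7.98 CPM. This was a log2 fold change of 0.89 ± 0.23 (edgeR adjusted p = 0.013) with no overlap.

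Beyond the 3′ end of Foxa1, 2 ACS were Up. The ACS at 106 kb downstream of the start (chr6:87968068-87968646) held 19.0, 20.7 and 17.0 CPM in adults and 8.92, 10.3 and 12.95 CPM at P10. The groups did not overlap, and the log2 fold change was 0.82 ± 0.21 (edgeR adjusted p = 0.013). At 165 kb downstream (chr6:87909472-87909949), the values were 41.2, 27.8 and 37.9 CPM against 24.5, 29.0 and 26.9 CPM. Adult 5 fell among the P10 libraries, and the log2 fold change of 0.41 ± 0.18 (edgeR adjusted p = 0.172) kept its call without Adult 5 (0.56, adjusted p = 0.039). Leaving out Adult 4, Adult 6, P10 1, P10 2 or P10 3 ended it, with 0.29 to 0.45 and adjusted p from 0.296 to 0.447. Column sums, cyclic loess and DESeq2 also ended it (adjusted p of 0.276, 0.270 and 0.246), while median-of-ratios, limma voom and the low-count filter kept it. The other 5 Up ACS of Foxa1 kept their calls whichever library was left out, and with total reads as library sizes the ACS 601 bp upstream alone stayed Up. The 14 stable Foxa1 ACS ranged from -0.67, at 153 kb downstream, to 0.54 in log2 fold change.

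Of the 34 ACS of Foxa2, 4 were Up, 8 were Down and 22 were stable. Its Up share of 11.8% was near the 12.3% of all ACS, and its Down share of 23.5% was above the 6.63% of all ACS. The median log2 fold change was -0.25. All ACS of chromosome 3 had a median of -0.17, and the part of this in the Foxa2 values was not tested. Without P10 2, 1 was Up and 2 were Down. The Down count was 5 without Adult 4 or Adult 5 and 4 without P10 3, and the Up count was 2 without Adult 4. The stable Foxa2 ACS ranged from -0.73 to 0.54 in log2 fold change.

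The ACS that the table places at the start of Foxa2, at chr3:148793564-148794547 and inside the gene from 77 bp after that start, was the most accessible of its ACS and was Down. It held 41.5, 34.7 and 32.1 CPM in Adult 4, 5 and 6 and 57.2, 49.4 and 48.6 CPM in P10 1, 2 and 3. All adult libraries were below all P10 libraries. The log2 fold change was -0.52 ± 0.16 (edgeR adjusted p = 0.045), and the call held under every alternative scaling, test, limit and left-out library. With a library left out, the edgeR adjusted p ran from 0.028 to 0.181, under the limit of 0.2. Among all TSS-class ACS, 7.87% were Down, and their median was -0.10. The ACS next to it inside the gene, 1.09 kb from the start, was also Down, with 4.52, 4.67 and 3.48 CPM against 7.67, 7.56 and 5.71 CPM. Its log2 fold change was -0.71 ± 0.27 (edgeR adjusted p = 0.111), with no overlap, but without Adult 6 or P10 2 the adjusted p was 0.287 or 0.297.

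Of all integrations assigned to Foxa2, the start ACS took 13.7%, 13.4% and 13.6% in the adult libraries and 18.0%, 19.2% and 17.4% at P10. The adult shares were nearly equal and all below the P10 shares. As the start ACS was already Down without overlap, this separation is no separate support for its call. The count at the Foxa1 upstream ACS divided by that at the Foxa2 start was 1.29, 1.21 and 1.31 in adults and 0.327, 0.298 and 0.350 at P10. The adult mean ratio was thus 3.92 times the P10 mean ratio, again a value free of scaling and without a test. Both ACS differed with age without overlap, in opposite directions, so the adult ratios had to be the higher.

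**Figure D2:**
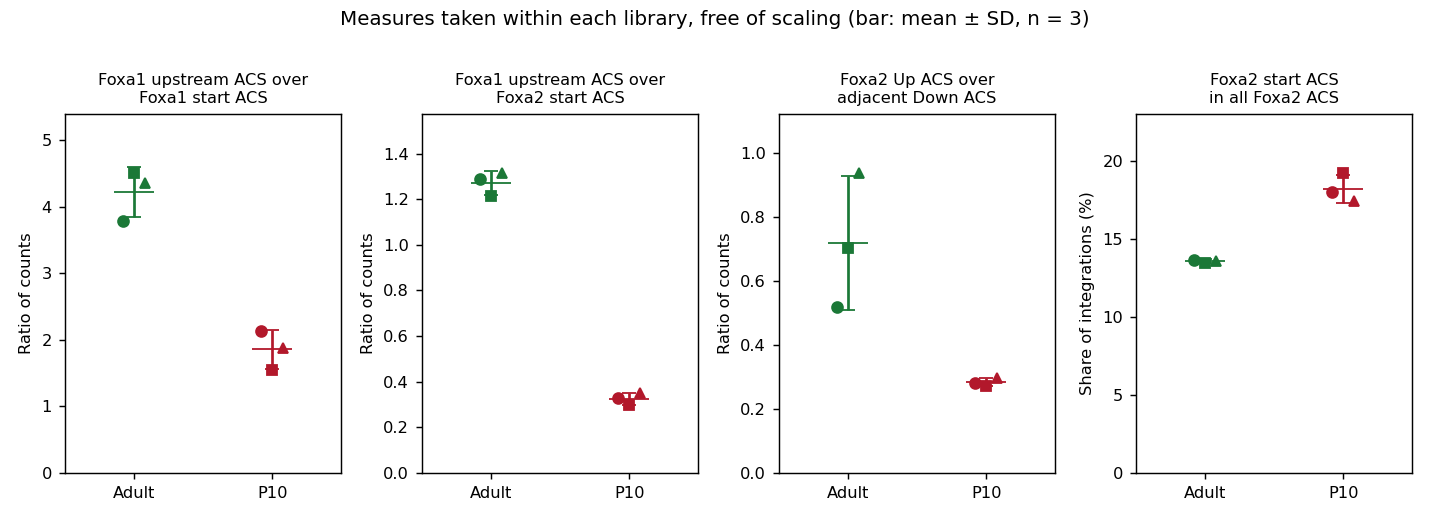
Ratios of counts and a share of integrations in percent (vertical axes) taken inside each library, by age (horizontal axes), with the symbols of the replicates as above and bars for the mean ± SD of 3 libraries. From left to right, the upstream over the start ACS of Foxa1 (4.22 in adults and 1.86 at P10), the upstream Foxa1 ACS over the Foxa2 start ACS (1.27 and 0.325), the Foxa2 ACS at 86.6 kb over its neighbour at 87.2 kb upstream (0.718 and 0.284), and the Foxa2 start ACS in all Foxa2 ACS (13.6% and 18.2%).

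Upstream of Foxa2, a pair of ACS separated by 17 bp differed in direction in the edgeR fit. At 87.2 kb upstream (chr3:148706276-148706841), the adult libraries held 12.7, 8.47 and 9.93 CPM and the P10 libraries 19.0, 13.9 and 16.9 CPM, all adults being lower. The log2 fold change was -0.68 ± 0.22 (edgeR adjusted p = 0.055), and the call held without any of the libraries. At 86.6 kb upstream (chr3:148706859-148707121), the values were 6.60, 5.94 and 9.28 CPM against 5.35, 3.78 and 5.02 CPM, all adults being higher. The log2 fold change was 0.61 ± 0.27 (edgeR adjusted p = 0.191), and the call was lost without Adult 4, Adult 6, P10 2 or P10 3 (0.40 to 0.67, adjusted p from 0.226 to 0.542). It was also lost with column sums, median-of-ratios or cyclic loess scaling (adjusted p of 0.267, 0.203 and 0.282), with limma voom (0.223), with DESeq2 (0.222) and with total reads, which turned its direction. The ratio of the second to the first was 0.518, 0.701 and 0.935 in adults and 0.282, 0.272 and 0.297 at P10. The P10 ratios lay close together, and every adult ratio was higher. The pair was chosen for its opposite calls, with no overlap of the ages at either ACS. This separation was thus fixed by the choice and adds nothing to those calls.

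The other 3 Up ACS of Foxa2 lay far from the gene. At 108 kb downstream (chr3:148900988-148901296), the adult libraries held 12.0, 9.15 and 8.25 CPM and the P10 libraries 6.18, 3.49 and 5.76 CPM, with no overlap. This was the largest rise near Foxa2, with a log2 fold change of 0.92 ± 0.27 (edgeR adjusted p = 0.026). At 121 kb downstream (chr3:148914807-148915253), the values were 9.40, 7.79 and 4.25 CPM against 3.02, 3.85 and 4.81 CPM, so that Adult 6 fell below P10 3. The log2 fold change was 0.89 ± 0.30 (edgeR adjusted p = 0.061). At 226 kb upstream (chr3:148567404-148567983), the values were 17.8, 16.9 and 17.4 CPM against 13.2, 8.63 and 13.1 CPM, with no overlap and a log2 fold change of 0.57 ± 0.22 (edgeR adjusted p = 0.104). Without P10 2, the first and the third lost their calls (0.70, adjusted p = 0.205, and 0.38, adjusted p = 0.489), and without Adult 4 the second did (0.65, adjusted p = 0.299).

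The remaining 5 Down ACS of Foxa2 lay between 13.03 and 168 kb from its start. The ACS at 168 kb downstream held 5.33, 6.52 and 5.29 CPM in adults and 7.81, 8.27 and 10.5 CPM at P10, with no overlap and a log2 fold change of -0.63 ± 0.25 (edgeR adjusted p = 0.129). The ACS at 13.03 kb upstream held 4.79, 3.70 and 2.06 CPM against 5.25, 6.06 and 6.71 CPM, also with no overlap, and its log2 fold change was -0.74 ± 0.30 (edgeR adjusted p = 0.138). The other 3, at 22.9, 40.0 and 103 kb downstream, had at most 2.97 CPM in any adult library and log2 fold changes of -1.11, -1.01 and -0.94 (edgeR adjusted p of 0.141, 0.154 and 0.136). The groups overlapped at the first and second of these. None of the 5 calls held without every library in turn. The call at 168 kb was lost without Adult 4, Adult 6, P10 2 or P10 3 (-0.69 to -0.50), that at 13.03 kb without Adult 6, P10 2 or P10 3 (-0.76 to -0.50), and that at 22.9 kb without Adult 4, Adult 5, P10 2 or P10 3 (-1.15 to -0.78). The call at 40.0 kb was lost without Adult 4, Adult 5, P10 1 or P10 2 (-1.06 to -0.55), and that at 103 kb without Adult 4, Adult 5, P10 2 or P10 3 (-0.91 to -0.78). Over these fits the adjusted p ran from 0.202 to 0.457. Cyclic loess also ended the calls at 22.9, 40.0 and 103 kb (adjusted p of 0.227, 0.212 and 0.209), and DESeq2 those at 22.9 and 40.0 kb (0.218 and 0.201).

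By level, the Foxa2 ACS fell into a mixed set and a lower set, with the limit chosen after values were seen. Among the 18 with a mean of at least 5 CPM, 4 were Up, 4 were Down and the median log2 fold change was 0.25. Among the 16 under 5 CPM, 0 were Up, 4 were Down and the median was -0.58, with 14 of them below 0. Over all ACS, 19.4% were Up and 5.47% Down at 5 CPM or more, and 5.87% were Up and 7.69% Down under it. The medians of all ACS were 0.073 at 5 CPM or more and -0.10 under it, where 30952 of 53144 were below 0. A shift in the same direction with level was thus present over all ACS. The ACS were found in the libraries of each age and then joined, and the P10 libraries held more integrations. Weak ACS could thus enter the list through P10 alone, and the part of this in the lower set was not tested. Foxa1 had 5 Up among 13 ACS at the higher level and 1 among 7 at the lower.

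**Figure D3:**
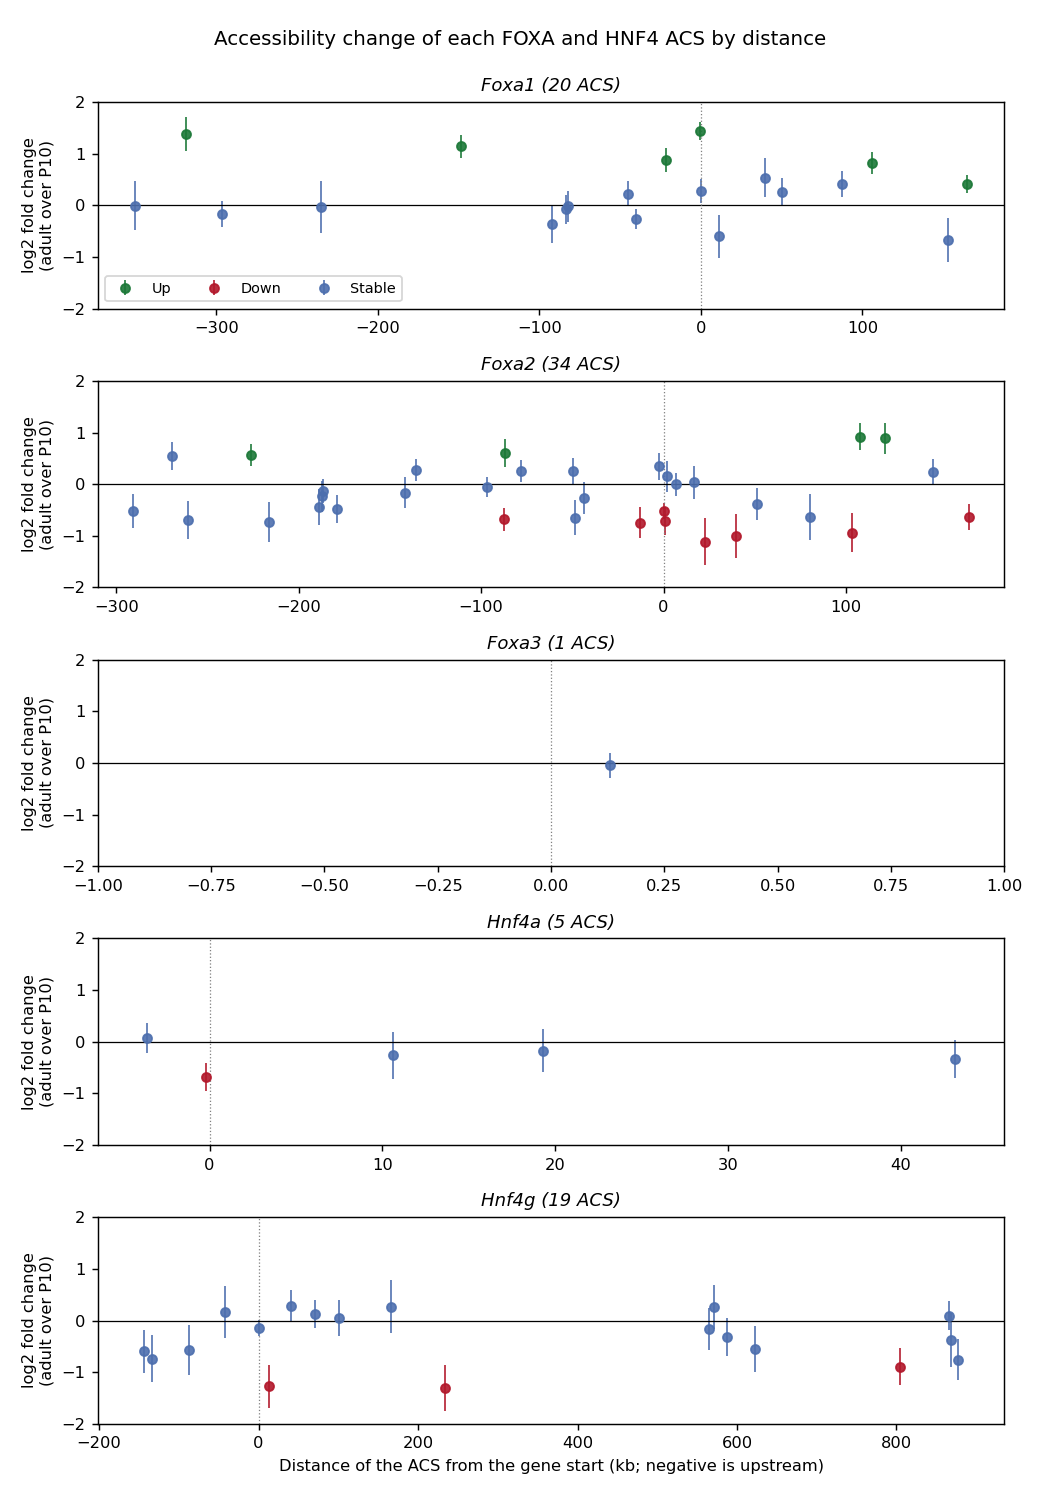
Log2 fold change, adult over P10, with its SE (vertical axis) of each of the 79 ACS against its distance from the gene start in kb (horizontal axis, negative is upstream), with a panel per gene and colours for Up, Down and stable. Foxa1 had 6 Up and 0 Down ACS, Foxa2 4 Up and 8 Down, Hnf4a 0 Up and 1 Down, and Hnf4g 0 Up and 3 Down. Over all ACS, 12.3% were Up and 6.63% Down.

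Foxa3 had a single ACS, at its start (chr1:81189901-81190248), and it was stable. It held 10.1, 8.08 and 7.73 CPM in adults and 8.74, 10.4 and 7.72 CPM at P10. The groups overlapped fully, and the log2 fold change was -0.04 ± 0.24 (edgeR adjusted p = 0.952).

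The start ACS of Hnf4a had the lowest mean level per kb of the 6 ACS of the TSS class at both ages, and it was Down. At chr3:166092909-166093310, which overlaps the annotated start, the adult libraries held 3.43, 5.45 and 5.67 CPM and the P10 libraries 9.39, 7.77 and 6.03 CPM. No library overlapped, although Adult 6 and P10 3 were close. The log2 fold change was -0.68 ± 0.28 (edgeR adjusted p = 0.138), and without Adult 4, P10 1 or P10 2 it was -0.69 to -0.48 with adjusted p from 0.283 to 0.413. The 4 other ACS were stable, from -0.33 to 0.08 in log2 fold change, and the highest of these was the ACS 3.61 kb upstream. The count of Up ACS was also 0 at an unadjusted p under 0.05 in edgeR, and in limma voom and DESeq2. Over all ACS, 12.3% were Up and 6.63% Down, and a count of 0 among 5 is near the former.

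Hnf4a is transcribed from an upstream promoter in islet cells and from a downstream promoter in liver. The 2 RefSeq starts printed above are 35.6 kb apart in GRCr8. In Rn5 the start ACS overlaps the first base of the annotated gene, and the ACS nearest in distance to the downstream start was at 43.1 kb inside the gene, 7.51 kb beyond that offset. It held 2.89, 4.28 and 1.42 CPM in adults and 5.16, 3.28 and 2.48 CPM at P10, with overlap. Offsets were compared between assemblies, so this distance is approximate.

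Hnf4g was dominated by its start. The ACS at chr2:120107435-120108739 overlaps the start and held 92.0, 63.9 and 75.2 CPM in adults and 85.8, 82.0 and 87.8 CPM at P10. Adult 4 was above and Adult 5 and 6 were below all P10 libraries, and the log2 fold change was -0.14 ± 0.15 (edgeR adjusted p = 0.665). It took 68.7% ± 3.58 of all Hnf4g integrations in adults and 67.4% ± 3.99 at P10 (SD, n = 3 each). Its 18 other ACS were weak, and 17 of the 19 had a mean under 5 CPM.

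Of the 19 Hnf4g ACS, 0 were Up and 3 were Down, with a median log2 fold change of -0.32. Its Down share was 15.8%, beside 12.3% Up and 6.63% Down of all ACS. Most Hnf4g ACS had under 5 CPM. At that level 5.87% of all ACS were Up and 7.69% Down, so a count of 0 Up is near the background. Weak ACS could also enter the list through the deeper P10 libraries alone, and the part of this in the Down ACS was not tested. The count of Up ACS was 0 at an unadjusted p under 0.05 too, and in limma voom and DESeq2. The ACS inside the gene at 12.9 kb from its start (chr2:120095107-120095510) held 1.81, 1.07 and 0.645 CPM in adults and 2.0, 3.57 and 3.33 CPM at P10. The groups did not overlap, and its log2 fold change of -1.28 ± 0.41 (edgeR adjusted p = 0.049) kept its call under every alternative. With a library left out, the edgeR adjusted p ran from 0.027 to 0.189, under the limit of 0.2. It was 0.085 with cyclic loess, 0.072 with limma voom and 0.056 with DESeq2. At 234 kb downstream, the values were 0.994, 0.584 and 1.68 CPM against 1.63, 2.28 and 3.96 CPM, with Adult 6 above P10 1 and a log2 fold change of -1.31 ± 0.45 (edgeR adjusted p = 0.064). At 804 kb downstream, they were 1.99, 1.66 and 1.93 CPM against 2.46, 3.49 and 4.44 CPM, without overlap and with a log2 fold change of -0.89 ± 0.35 (edgeR adjusted p = 0.125). The call at 234 kb was lost without Adult 5 or P10 3 (-1.01 and -0.88, adjusted p of 0.222 and 0.385), and that at 804 kb without Adult 5, P10 2 or P10 3 (-0.90 to -0.68, adjusted p from 0.231 to 0.416). Without P10 3, 1 Hnf4g ACS was Down. The stable ACS inside the gene at 40.3 kb had the highest log2 fold change, 0.29 ± 0.30 (edgeR adjusted p = 0.653), and the lowest of the 16 stable ACS was -0.76.

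**Figure D4:**
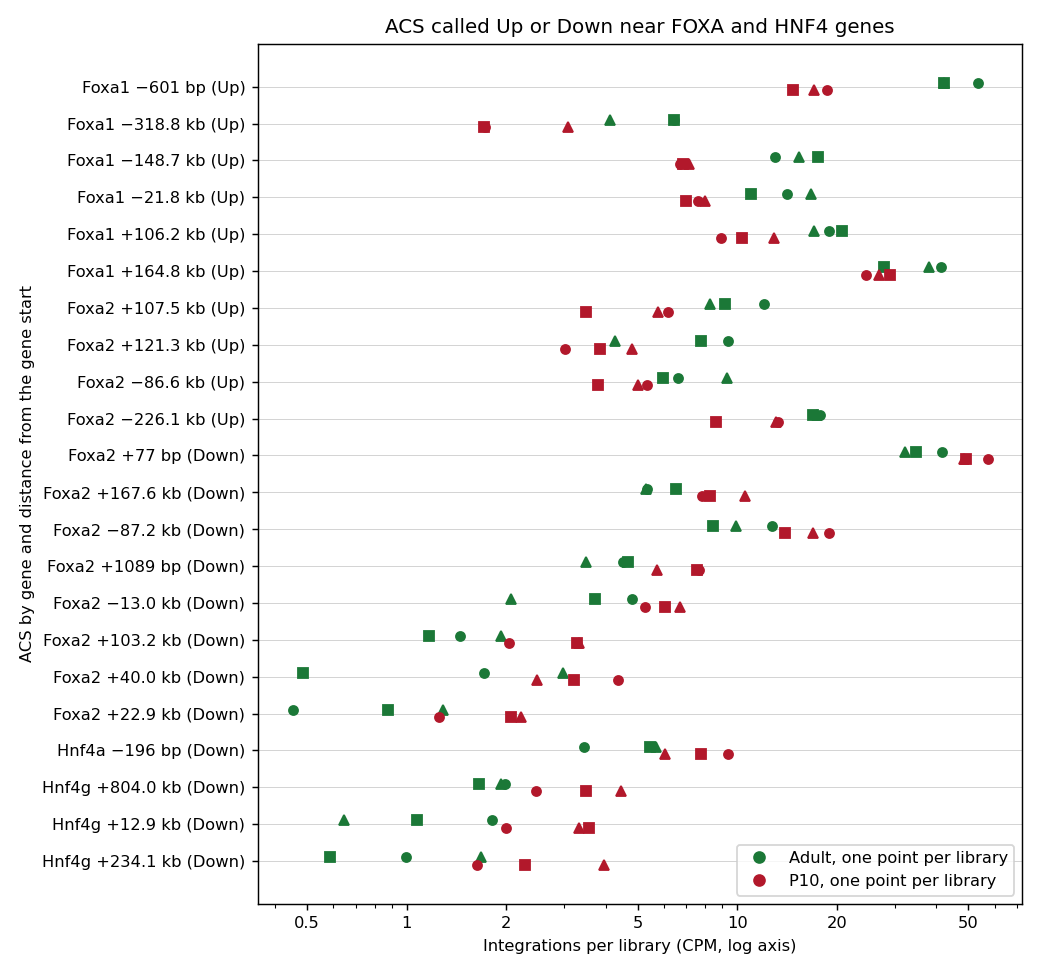
Integrations in CPM on a log axis (horizontal) for the 22 called ACS, named by gene and distance from the gene start (vertical), with 1 point per library, adults in green and P10 in red and the symbols of the replicates as above. At the ACS 601 bp upstream of Foxa1 the adult points lie from 42.1 to 53.4 and the P10 points from 14.7 to 18.7, and at the Foxa2 start from 32.1 to 41.5 and from 48.6 to 57.2.

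The order of the starts by accessibility per kb of ACS differed between the ages. In adults it was the upstream Foxa1 ACS (70.6 CPM per kb), Hnf4g (59.0), Foxa2 (36.7), Foxa3 (24.8), the Foxa1 ACS over the start (23.4) and Hnf4a (12.1). The first and second overlapped between libraries, as did Foxa3 and the Foxa1 start. At P10 it was Hnf4g (65.3), Foxa2 (52.6), the upstream Foxa1 ACS (25.8), Foxa3 (25.7), the Foxa1 ACS over the start (19.3) and Hnf4a (19.2). There the upstream Foxa1 ACS and Foxa3 overlapped, as did the Foxa1 start and Hnf4a. Adult 4 was the highest adult library at 5 of these 6 ACS.

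Summed over all ACS of a gene, Foxa1 held 248, 215 and 224 CPM in adults and 143, 163 and 182 CPM at P10. The groups did not overlap, the log2 ratio of the means was 0.49, and the exact two-sided permutation test gave p = 0.1, the smallest that 3 against 3 libraries allow. Foxa2 held 266 ± 34.4 and 285 ± 30.8 CPM (SD, n = 3 each; exact permutation p = 0.6). Hnf4g held 112 ± 15.6 and 127 ± 8.03 CPM (exact permutation p = 0.3), Hnf4a 14.4 ± 2.47 and 18.2 ± 4.10 CPM (exact permutation p = 0.2), and Foxa3 8.65 ± 1.29 and 8.96 ± 1.36 CPM (exact permutation p = 0.8). The groups overlapped for the last 4 genes. Scaled by total reads, the Foxa1 log2 ratio was -0.32, against a median of -0.84 over all ACS.

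**Figure D5:**
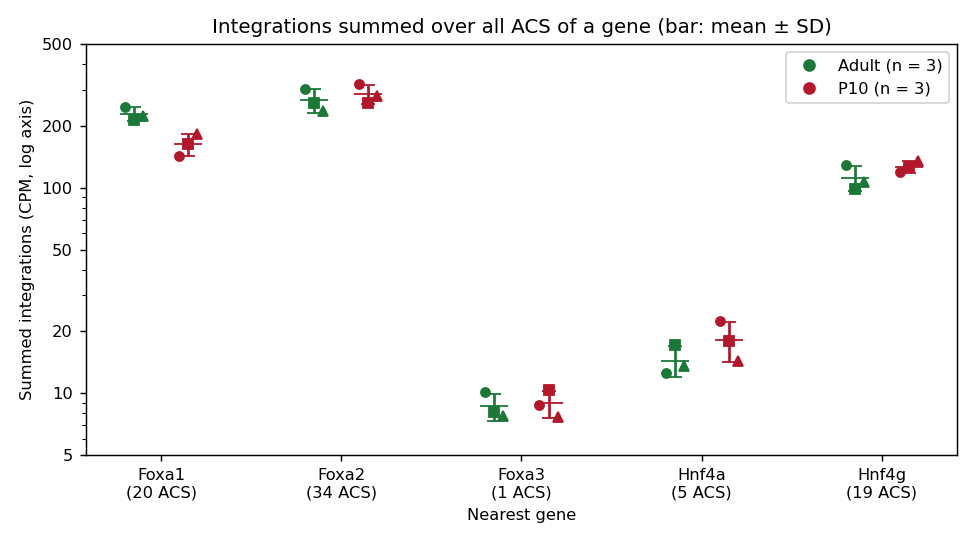
Integrations summed over all ACS of a gene in CPM on a log axis (vertical) for the 5 genes (horizontal), with 1 point per library and bars for the mean ± SD of 3. Foxa1 lay between 215 and 248 in adults and between 143 and 182 at P10, and the libraries of both ages overlapped for the other 4 genes.

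Other genes of the same network were counted from fixed lists. Of 16 factors that work with FOXA and HNF4 proteins, 13 had ACS. Of their 233 ACS, 21 (9.01%) were Up and 24 (10.3%) Down, with a median log2 fold change of -0.11. Over all ACS, 12.3% were Up and 6.63% Down. Nr5a2, a nuclear receptor of pancreas and liver, had 7 Down and 1 Up of 31. Ppargc1a, a coactivator of HNF4 proteins, had 6 Up and 4 Down of 24, and Foxo1, a forkhead factor of the insulin pathway, had 6 Up and 1 Down of 26. These genes are named for having the most Down or Up calls of the list. Nr2f2, with the most ACS, had 3 Up and 6 Down of 55.

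Of 15 genes known as targets in islet or liver, 13 had ACS. Of these 97 ACS, 10 (10.3%) were Up and 6 (6.19%) Down, with a median of 0.03. Slc2a2, the glucose transporter of rodent β-cells, had 6 Up and 0 Down of 21, and Pck1, an enzyme of gluconeogenesis, 0 Up and 2 Down of 4. Of 283 ACS near 23 other forkhead genes, Foxo1 among them, 33 (11.7%) were Up and 8 (2.83%) Down, with a median of 0.0034. Foxe3 and Foxn3 each had 8 Up and 0 Down of 34. The shares of both lists stand beside 12.3% Up and 6.63% Down of all ACS. Here too, the genes named are those with the most calls of a direction in their list.

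By accessibility at the start, measured as log2 CPM over the 6 libraries, the genes most like each member among 8929 others were Nedd4l, Mcoln3 and Kcnj6 for Foxa1 (Pearson r from 0.993 to 0.996), Tead3, Chchd5 and Snx27 for Foxa2 (0.993 to 0.995) and Brd1, Dusp7 and Apex1 for Foxa3 (0.967 to 0.983). They were Fam212b, Kctd13 and Sh3pxd2a for Hnf4a (0.975 to 0.987) and Sgpp2, Eny2 and Tbc1d2b for Hnf4g (0.987 to 0.991). The 6 points share their libraries and depth, and r is given as a description with no test. Each r is among the highest of 8929 on only 6 points, and unrelated genes can reach high values through such a choice.

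The libraries held 7916919 to 11903909 integrations in ACS in adults and 13491534 to 21168463 at P10, so that low ACS were measured less precisely in adults. The start ACS of cell type markers were summed per library in CPM. Endocrine markers had an ACS for 6 of 8 genes, none for Chga and Ppy, with 134 to 187 in adults and 176 to 305 at P10 and Ins1 and Ins2 Down. Duct markers had one for 4 of 6, none for Krt7 and Spp1, with Sox9, Muc1 and Cftr Down and sums of 23.5 to 26.4 in adults and 36.4 to 42.5 at P10. Only Cd74 of 6 immune markers had one, and it was Up, at 26.4 to 36.7 against 15.9 to 17.6. Acinar markers had one for 2 of 9 genes (16.5 to 25.1 against 21.1 to 26.7), endothelial for 2 of 6 (23.5 to 31.7 against 28.9 to 35.5), mesenchymal for 4 of 6 (15.5 to 22.3 against 20.4 to 24.9), hepatocyte for 1 of 6 (10.0 to 13.8 against 11.4 to 12.8) and glial for 0 of 4. Cycling markers had one for 5 of 6 (180 to 181 against 161 to 195), with Aurkb Down. FOXA and HNF4 genes are also used in duct cells, and the part of cell composition in the values above was not tested.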

How the data were processed

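Counts of Tn5 integrations were deposited as raw whole numbers per ACS and library. The authors aligned reads to Rn5 with BWA 0.7.13, dropped reads that were mitochondrial or poorly mapped, ran MACS2 2.1.1 on the concatenated libraries of each age, joined them, and counted integrations with pyDNase; duplicate removal is not given in the sources used here. The table also holds columns of the authors' own comparison, which were not used. Of 101941 entries, 101603 were distinct ACS and each was tested once. Counts were scaled by TMM (factors 0.93 to 1.04) and tested with the quasi-likelihood test of edgeR 4.0.16 (R 4.3.3), with age as the only term, no filter, and Benjamini-Hochberg adjustment over all ACS. SE is the absolute log2 fold change divided by the square root of F. CPM divides counts by the scaled library size. Replicates differed by more than counting error (chi-square per degree of freedom of 3.35 to 7.81). Separate animals or litters make each library, and counting error assumes independent integrations. limma 3.58.1 (voom, cyclic loess) and DESeq2 1.42.0 were alternatives, with other library sizes, a low-count filter, an FDR under 0.05 and each library left out. The test was tried on simulated counts first.

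Members and gene lists were chosen with earlier results of these data known. The ACS given singly are those of class TSS, those called, and per gene those with the highest CPM and the highest and lowest log2 fold change, 28 in all; those at 11.2 and 43.1 kb were added after their values were seen, as were the ratios, the split at 5 CPM and the count of Adult 4. Some results of these lists and 1 set of motif letters are not reported here. Likeness used log2(CPM + 0.1) at genes with a mean of at least 50 integrations at the start. Promoters came from RefSeq (GRCr8); Foxa1 and Hnf4g were not matched. Figures were drawn with matplotlib 3.10.9.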

Additional observations from a re-analysis of the deposited data

How the results depend on the processing

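No paired analysis was possible because the replicate numbers of the ages are not shared (4 to 6 in adults and 1 to 3 at P10). Under an FDR limit of 0.05, all ACS gave 7177 Up and 1945 Down, and the members 6 Up and 2 Down. With column sums as library sizes, 10732 of all ACS were Down. With total reads, which put the median of all ACS at -0.84, 1062 of all ACS were Up and 61663 Down, and the members had 1 Up and 50 Down. Leaving out each library gave 7973 to 13232 Up and 3285 to 7215 Down of all ACS, and 6 to 10 Up and 4 to 10 Down members, with the lowest counts without P10 2. Of the 22 called members, 8 kept the call in every fit with a library left out, and 3 under every alternative. Those 3 were the ACS 601 bp upstream of Foxa1, the ACS that the table places at the Foxa2 start and the Hnf4g ACS at 12.9 kb. For the last 2, the edgeR adjusted p reached 0.181 and 0.189 with a library left out. DESeq2 kept 18 of the 22 calls, limma voom 21, cyclic loess 17, median-of-ratios 21, column sums 20 and the low-count filter 22.

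Signs turned as follows, and the cause was not tested beyond the shift named. With total reads, log2 fold changes became -0.52 at Hnf4g 40.3 kb, -0.28 and -0.26 at Foxa2 226 and 86.6 kb upstream, -0.78 at Hnf4a 3.61 kb upstream, -0.42 at Foxa1 165 kb downstream, -0.54 at the Foxa1 start and -0.32 for the Foxa1 sum. Hnf4a at 3.61 kb upstream also became -0.013 with column sums, and with each library left out it ran from -0.10 (without P10 3) to 0.21, being -0.0093 without Adult 5. Foxa3 ran from -0.17 to 0.056 with each library left out, being above 0 without Adult 5, Adult 6 or P10 2, and its sum from -0.18 to 0.071, being above 0 without Adult 6 or P10 2. All of these ACS but the called ones of Foxa2 and Foxa1 were stable with TMM. The sums were given no call, and with TMM the log2 ratio of the Foxa1 sum was 0.49 without overlap.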
